A study of Schizosaccharomyces pombe with 4 samples.

Results

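The genes described here are the cytosolic ribosomal protein genes of fission yeast (Schizosaccharomyces pombe), in diploid cells early in meiosis, with and without the histone variant H2A.Z. They are all genes whose symbol in the platform annotation is rpl or rps followed by digits, with rpl for the large and rps for the small ribosomal subunit. The rule gave 112 of the 2899 named genes on the arrays, 67 of the large and 45 of the small subunit. It uses symbols alone, so no measured value entered the choice, although the set was picked with other results of these arrays known. The current RefSeq annotation holds 132 symbols of this form, and those beyond the 112 were not analysed here.

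Messenger RNA was measured on 4 Affymetrix arrays, 1 for each combination of 2 genotypes and 2 times after nitrogen was withdrawn to start meiosis (1.5 h and 3 h). Wild type was an h+/h- diploid that carried his5-303/+ and leu1-32/+ and was ade6-210/216. The deletion strain had the same genotype with ura4-D18/ura4-D18 and both copies of pht1, the H2A.Z gene, replaced by ura4+ (pht1D::ura4+/pht1D::ura4+). The labels do not say whether both times came from 1 culture, and no sample from before nitrogen withdrawal was analysed here. On the log2 scale, pht1 read 12.70 and 12.86 on the wild-type arrays and 7.37 and 7.36 on those of the deletion, which checks the genotype labels and not those of time.

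A ribosome holds 1 copy of most of its proteins, and growing yeast cells spend a large share of their transcription on these genes. Their transcription is coupled to nutrients through the TOR kinase pathway, and it is known to decline when yeast is starved of nitrogen. Many ribosomal proteins of fission yeast are encoded by more than one gene at separate loci, and such paralogues often encode nearly identical proteins. H2A.Z replaces H2A in nucleosomes, often beside promoters.

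The values are log2 signals made by RMA, which scales the arrays to each other, so a value places a transcript among the others of its array. The distributions were close but not identical, with medians over all 4999 probe sets of 11.27, 11.24, 11.26 and 11.23, and the differences between these medians are of the size of the set medians reported below. A general fall or rise of mRNA in a culture is therefore not measured, and fewer expressing cells cannot be told apart from less RNA per cell. With 1 array per group, the differences below are 1 array minus 1 array, without replicates and so without a p-value. Genes entered a comparison of 2 arrays when the higher of them lay above the 25th percentile of its array, and the difference of differences when this held for the genotype comparison at both times. Over the 2268 genes above this floor in the difference of differences, the spread of a difference between 2 arrays was 0.13 log2 units. In all, 111 of the 112 ribosomal protein genes lay above the floor.

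The probe sets of ribosomal protein genes were among the brightest on all 4 arrays. In wild type the median over the 112 genes was 13.94 at both times, and in the deletion it was 13.89 at 1.5 h and 13.94 at 3 h. The median of all named genes lay between 11.37 and 11.40. The mean over the 4 arrays was above the 90th percentile of genes (13.58) for 87 ribosomal protein genes and above 13 for 105. Large-subunit genes had array medians of 13.95, 13.95, 13.88 and 13.94, and small-subunit genes 13.94, 13.93, 13.91 and 13.94, in the order wild type 1.5 h, wild type 3 h, deletion 1.5 h and deletion 3 h, which is kept below wherever 4 values are given. The lowest of the 4 medians in each subunit was that of the deletion at 1.5 h.

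Within the set, the size of the differences moved with brightness. The 111 genes were split into 3 sets of 37 by their mean value. The median size of the genotype difference at 1.5 h, without its sign, was 0.11 in the dimmest set (means 11.28 to 13.77), 0.058 in the middle set (13.78 to 14.11) and 0.020 in the brightest (14.13 to 14.71). At 3 h the 3 sets had 0.052, 0.038 and 0.031. A gene of the brightest set, rpl1001, which encodes the L10 protein that joins the large subunit late in its assembly, read 14.71, 14.70, 14.71 and 14.70. The part of brightness in these differences was not tested. The highest value of any gene on the 4 arrays was between 14.84 and 14.89.

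**Figure D1:**
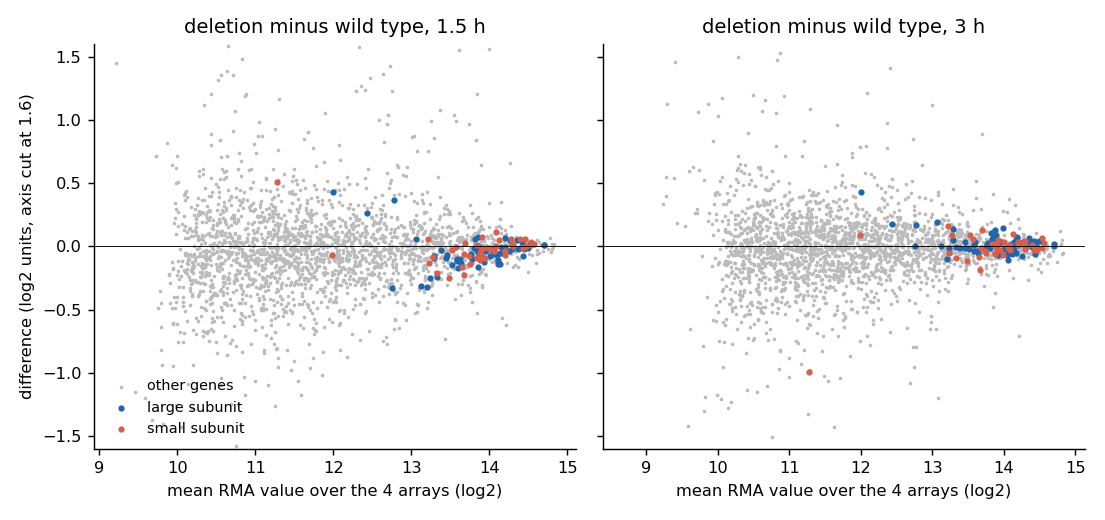
Genotype difference (deletion minus wild type, log2 units) of each gene above the floor against its mean RMA value over the 4 arrays, at 1.5 h on the left and 3 h on the right. Ribosomal protein genes of the large subunit are blue, of the small subunit red, and other genes grey. Most ribosomal protein genes sit at the bright end near 0, and the few that stand away from 0 are among the dimmer ones. The axis ends at 1.6, and 32 and 27 other genes lie outside it.

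At 1.5 h the ribosomal protein genes were close to level between the genotypes, with a slight excess of lower values in the deletion. Of the 111 genes, 79 read lower and 32 higher in the deletion, that is 71.2% lower, where 56% of all 2331 genes compared read lower. Their median difference was -0.033, against -0.031 for all genes, and their middle 50% ran from -0.092 to 0.0063. The interquartile range was 0.098 for ribosomal protein genes, 0.31 for all genes and 0.21 for the 508 other genes within the same range of mean values, whose median was -0.0046. These 508 genes share only the limits of that range, 12.77 to 14.51. They were not matched to the ribosomal protein genes in brightness within it. With the trend of the differences on brightness removed by lowess, the ribosomal median was -0.016. Quantile normalization and median centring gave -0.021 and -0.022. Here and below, the lowess was fitted on all genes compared, ribosomal protein genes included. It can therefore remove part of their own difference.

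A difference of at least 0.32 log2 units, the threshold used here for a small change, at 1.5 h was reached upward by 3 of the 111 genes, where 10.9% of all genes reached it, and downward by 1, where 13.8% did. None of the 111 differed by 2-fold or more, against 3.47% of all genes. The 3 higher genes were rps1401, rpl3002 and rpl102, and the lower one was rpl502. Of the 508 other genes in the same range of mean values, 43 were higher and 33 lower by at least 0.32, and 10 reached 2-fold. In the large subunit 53 of 66 genes read lower in the deletion, with a median of -0.044, and in the small subunit 26 of 45, with a median of -0.016. The gap between the subunit medians, -0.028, was not tested.

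At 3 h the genotypes were level. Of the 111 genes, 60 read higher and 51 lower in the deletion, where 52.4% of all 2337 genes read lower. The median was 0.011, with an interquartile range of 0.072 against 0.25 for all genes and 0.14 for the 508 others in the same range of mean values. The ribosomal median took the other sign, -0.0032, after quantile normalization. The medians of the large and small subunit were 0.013 and -0.0016. Higher by at least 0.32 was rpl3002 alone (8.77% of all genes), and lower by at least 0.32 was rps1401 alone (10.5% of all genes). None reached 2-fold, against 2.74% of all genes. Among the 508 others in the same range of mean values, 17 were higher and 16 lower by at least 0.32, and 3 reached 2-fold.

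Between 1.5 h and 3 h in wild type, ribosomal protein genes were nearly constant. The median difference over time was -0.0020, with 50 genes higher and 60 lower at 3 h, where 54.5% of all 2330 genes were lower. The interquartile range was 0.061, against 0.27 for all genes and 0.21 for the 508 others in the same range of mean values. The gene rps1401 was the one higher by at least 0.32 (11.1% of all genes), 0 were lower by at least 0.32 (10.4%), and 0 reached 2-fold (3.35%). Among the 508, 56 were higher and 28 lower by at least 0.32, and 16 reached 2-fold. The sign of this median turned under lowess (0.0086) and median centring (0.030), so it gives no direction.

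In the deletion, more ribosomal protein genes read higher at 3 h than at 1.5 h. The median was 0.041, with 85 genes higher and 26 lower, where 49.9% of all 2328 genes were lower and the median of all genes was 0.0010. It was 0.035 under lowess, 0.030 after quantile normalization and 0.075 after median centring. Higher values at 3 h were read for 54 of 66 large-subunit genes (median 0.052) and 31 of 45 small-subunit genes (median 0.028). None was higher by at least 0.32 (9.19% of all genes). One gene, rps1401, was lower by at least 0.32 (5.97% of all genes) and by at least 2-fold (2.84% of all genes). For the 508 others in the same range of mean values, 21 were higher and 18 lower by at least 0.32, and 0 reached 2-fold.

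The difference of the time differences, deletion minus wild type, had a median of 0.048 over the 111 genes and 0.016 over all 2268 genes. It was positive for 85 and negative for 26 ribosomal protein genes, where 46.3% of all genes were negative. Past 0.32 there were 1 gene upward, rpl502 (6.13% of all genes), and 1 downward, rps1401 (7.05%), and rps1401 also passed 2-fold (1.85% of all genes). For the 508 others in the same range of mean values, 19 were past it upward and 37 downward, and 10 passed 2-fold. The large-subunit median was 0.060 and the small-subunit median 0.040. This quantity uses the same 4 arrays as the comparisons above, and a single low array, the deletion at 1.5 h, enters the genotype difference at 1.5 h, the time difference in the deletion and this one. Under lowess the ribosomal median was 0.028.

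**Figure D2:**
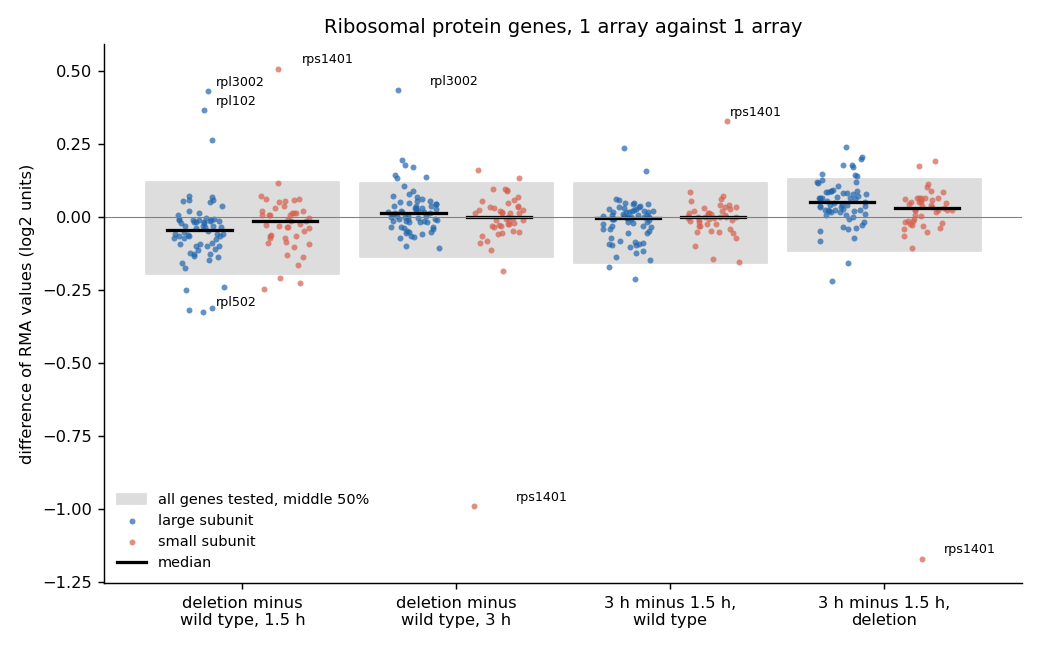
Differences of log2 RMA values for 111 ribosomal protein genes in 4 comparisons of 1 array with 1 array. Each point is a gene, blue for the large and red for the small subunit, black lines are medians and grey boxes hold the middle 50% of all genes compared. Nearly all points lie inside or close to the grey boxes, and rps1401 lies far below them at 3 h (-0.99) and over time in the deletion (-1.17).

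A difference common to both times, or to both genotypes, was tested with limma in a fit of 2314 genes that adds a genotype term and a time term. After Benjamini-Hochberg adjustment over all of them, 0 of the 111 ribosomal protein genes were called for genotype, where 2.12% of all genes were called. For time 0 ribosomal protein genes were called, and so were 0% of all genes. At an unadjusted p under 0.05, limma had 5 ribosomal protein genes for genotype, against 615 of 2314 genes, and 3 for time, against 527 of 2314 genes. Without the trend of variance on intensity, limma called 31 genes for genotype and 0 for time, and 0 ribosomal protein genes in either. With 4 arrays, 1 residual degree of freedom is left for each gene, so the p-values reflect the spread between these 4 arrays, and a gene whose genotype difference changes with time counts as noisy.

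The lowest adjusted p for genotype belonged to rpl3002, with an effect of 0.43 (SE 0.073) and limma's adjusted p = 0.0755. It was 0.0485 after quantile normalization, the single alternative under which a ribosomal protein gene was called, and between 0.0623 and 0.089 under the other alternatives of scaling, floor and probe set. After quantile normalization limma called 165 of 2314 genes for genotype, against 49 of 2314 in the main fit. The lowest for time belonged to rpl2502, a gene of the L25 protein near the exit of the peptide tunnel, with an effect of -0.19 (SE 0.044) and limma's adjusted p = 0.147. Its values were 13.88, 13.67, 13.82 and 13.66, so it read lower at 3 h in both genotypes, while its paralogue rpl2501 read 13.95, 13.998, 13.83 and 13.93.

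Among the small-subunit genes, rps1401 had the largest differences of all ribosomal protein genes above the floor. It encodes S14, a protein of the platform of the small subunit. Its values were 11.24, 11.56, 11.74 and 10.57. In the deletion it was the higher of the genotypes at 1.5 h, by 0.51 (1.42-fold), and the lower at 3 h, with a difference of -0.99 (1.99-fold). Over time it differed by 0.33 in wild type and by -1.17 (2.25-fold lower) in the deletion, which gives a difference of differences of -1.50. The array that stands away from the other 3 is the deletion at 3 h.

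Some other genes had patterns like that of rps1401. A genotype difference past 0.32 in opposite directions at the 2 times was found for 11 of 2268 genes (0.485%), and rps1401 was the single ribosomal protein gene among them. A difference of differences as low as its own or lower was found for 15 of 2268 genes, rps1401 included, and 7 of 2328 genes were as far down or further over time in the deletion. In the additive fit the 2 opposite differences partly cancelled, with a genotype effect of -0.24 (SE 0.39) and limma's adjusted p = 0.726.

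The paralogue rps1402 did not share the pattern. Its values were 13.56, 13.60, 13.31 and 13.48, lower in the deletion at both times, with differences of -0.25 and -0.11. Over time it differed by 0.040 in wild type and 0.17 in the deletion. The 2 genes thus went opposite ways between genotypes at 1.5 h and over time in the deletion, by more than the spread of 0.13 on both sides. The range between them was 0.76 at 1.5 h and 0.88 at 3 h.

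In the RefSeq annotation, the span of rps1401 overlaps that of its neighbour aar2, which encodes an assembly factor of the U5 snRNP of the spliceosome. The values of aar2 were 11.84, 11.96, 11.84 and 11.76, with genotype differences of 0.0040 at 1.5 h and -0.20 at 3 h. Beyond aar2 on the same side, pol1, the gene of the catalytic subunit of DNA polymerase alpha, was below the floor on every array and differed by -0.071 and -0.17. On the other side, the kinesin gene pkl1 differed by -0.11 and -0.25. All 3 neighbours read lower in the deletion at 3 h, by less than rps1401. Whether the overlap or cross-hybridisation with rps1402 enters the rps1401 signal was not tested, since probe sequences were not used here.

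**Figure D3:**
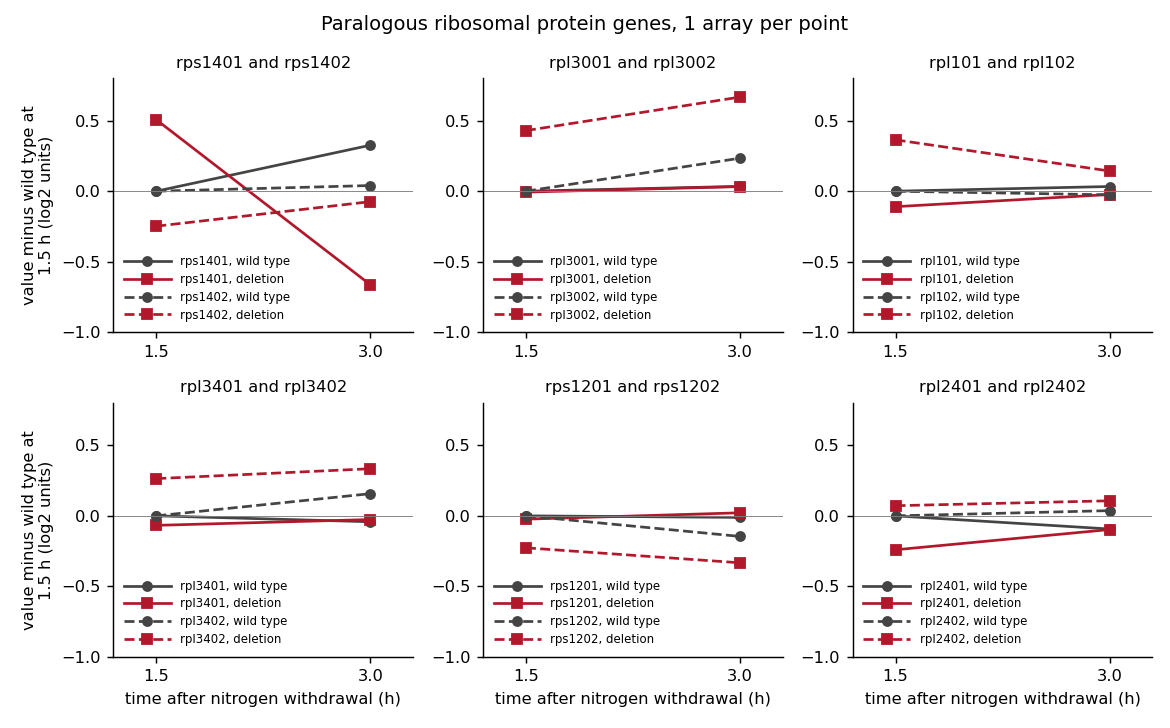
Log2 RMA values of 6 paralogous gene pairs at 1.5 h and 3 h, each relative to the same gene in wild type at 1.5 h. Grey circles are wild type and red squares the deletion, solid lines the first and dashed lines the second gene of each pair, with 1 array per point. The lines of rps1401 cross, those of rpl3002 stay apart by 0.43 at both times, and rpl3001 stays near 0.

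Paralogues were grouped by symbol, with the last 2 digits removed where a symbol has 3 or more. By this rule rpl15 joined rpl1502 and rps23 joined rps2302, while rpl8 was kept apart from rpl801, rpl802 and rpl803 as an exception. This gave 42 groups, 40 pairs and 2 triples, with 86 genes. The range between the members of a group in the genotype difference at 1.5 h had a median of 0.096 and lay within the spread of 0.13 for 27 of 42 groups. At 3 h the median range was 0.057, and 34 of 42 groups lay within the spread. Over time it was 0.070 in wild type (32 groups within) and 0.060 in the deletion (34 groups within). The spread of 0.13 is that of a single difference over all genes, whereas a range sets 2 or 3 differences against each other. These counts are therefore a description and no test of likeness between paralogues, and unrelated genes were not counted in the same way. All members of a group differed in the same direction in 25 groups at 1.5 h, 25 at 3 h, 21 over time in wild type and 27 over time in the deletion. Of the 111 genes, 71.2% read lower at 1.5 h, 45.9% at 3 h, 54.1% over time in wild type and 23.4% in the deletion. Unrelated ribosomal protein genes would thus also often share a direction. Whether paralogues did so more often was not tested.

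A range of at least 0.32 was found for 4 groups at 1.5 h, those of S14, L1, L30 and L34, and for 2 groups at 3 h, S14 and L30. In each of these 4 groups the gene with the larger genotype difference at 1.5 h was the dimmer of the pair. Its mean value, against that of its paralogue, was 11.28 against 13.49 (S14) and 12.78 against 14.11 (L1). It was 11.996 against 14.148 (L30) and 12.437 against 14.095 (L34). Differences were larger among the dimmer genes of the whole set, and the part of brightness in these ranges was not tested. Over time there were 0 such groups in wild type and 1, S14, in the deletion. Members on opposite sides of 0 by more than 0.13 each were found in the S14 pair at 1.5 h and over time in the deletion, and in 0 groups at 3 h and over time in wild type.

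**Figure D4:**
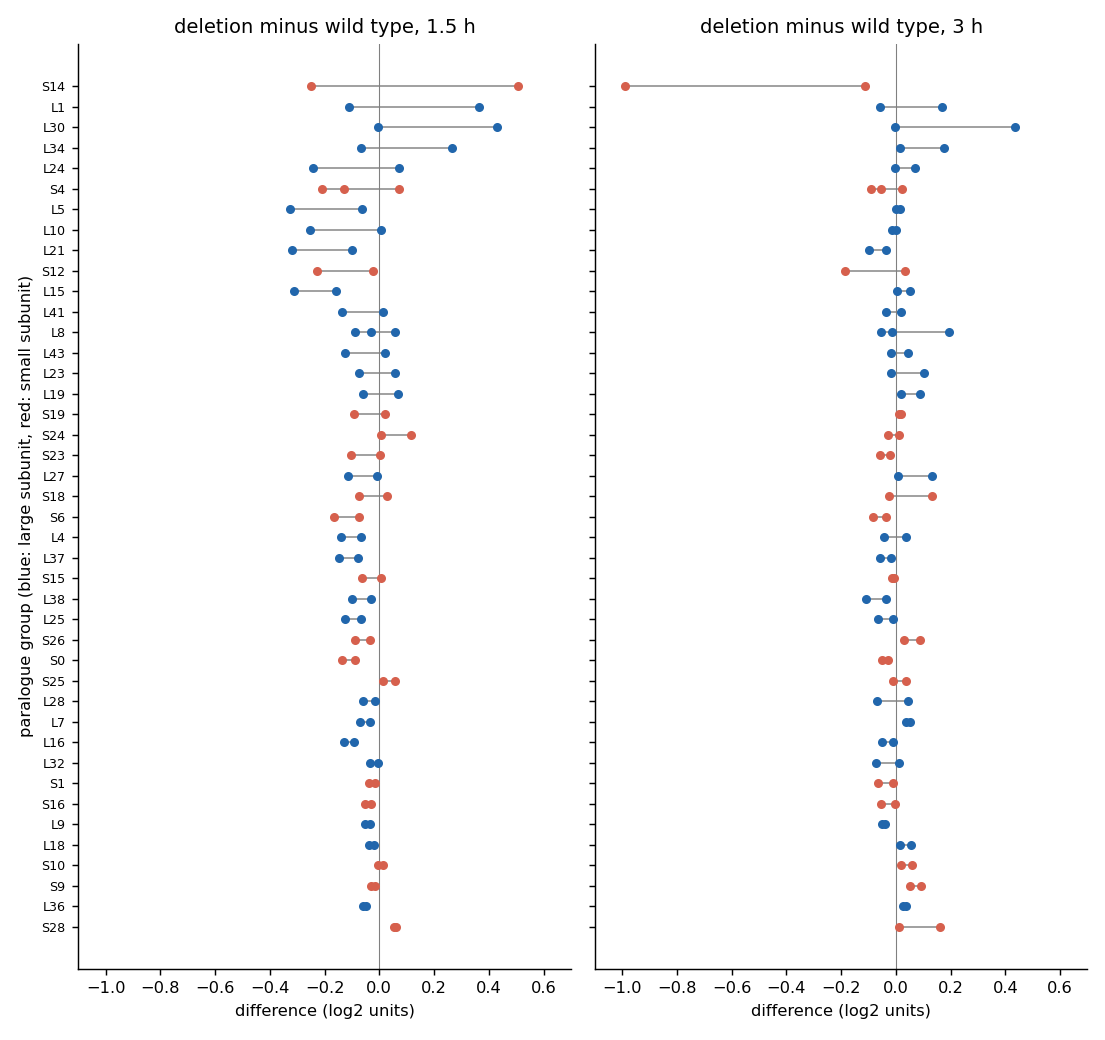
Genotype difference (deletion minus wild type, log2 units) of every gene in the 42 paralogue groups, at 1.5 h on the left and 3 h on the right, with a line joining the members of a group. Groups are ordered by their range at 1.5 h. The S14 pair has the widest range at both times, 0.76 and 0.88, and the median range is 0.096 and 0.057.

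In the large subunit, rpl3002 differed most between the genotypes in the same direction at both times. It encodes L30, which in Saccharomyces cerevisiae regulates the splicing of its own transcript. Its values were 11.66, 11.90, 12.09 and 12.33. The deletion was higher by 0.43 at 1.5 h (1.35-fold) and by 0.43 at 3 h (1.35-fold), and 3 h was higher than 1.5 h by 0.23 in wild type and 0.24 in the deletion. Both deletion arrays were above both wild-type arrays. Its paralogue rpl3001 read 14.13, 14.17, 14.13 and 14.17, with genotype differences of -0.0064 and -0.0015. Its nearest neighbours went different ways. On one side win1, a stress-pathway kinase gene, differed by -0.39 and -0.35. Beyond it etd1 differed by 0.068 at 1.5 h and by -0.61 at 3 h, where it was below the floor in both genotypes. On the other side atl1, below the floor on every array, differed by 0.22 and 0.13, the direction of rpl3002, and ubc14 beyond it by -0.037 and -0.19.

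The L1 and L34 pairs had the same form, with 1 gene of the pair, the dimmer one, higher in the deletion at both times. L1 forms a mobile stalk beside the site where tRNA leaves the ribosome. The values of rpl102 were 12.65, 12.63, 13.02 and 12.80, higher in the deletion by 0.36 at 1.5 h and 0.17 at 3 h. Its paralogue rpl101 read 14.14, 14.17, 14.03 and 14.11, with differences of -0.11 and -0.057. For rpl3402 the values were 12.25, 12.41, 12.51 and 12.58, higher in the deletion by 0.26 and 0.18. Its paralogue rpl3401 read 14.13, 14.09, 14.06 and 14.10, with differences of -0.068 and 0.016. Limma's adjusted p for genotype was 0.16 for rpl102 and 0.176 for rpl3402.

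Some of the large-subunit genes that were lower in the deletion at 1.5 h read close to level at 3 h. They were named for their place at the ends of the comparisons or for their paralogue range. Their low value in the deletion at 1.5 h thus partly restates that choice. Among them rpl502, whose product L5 binds the 5S ribosomal RNA, had the largest difference at 1.5 h. Its values were 12.91, 12.76, 12.58 and 12.76. Its genotype difference was -0.33 at 1.5 h, just past the threshold of 0.32, and -0.0001 at 3 h. Under lowess and median centring the first difference was -0.29 and -0.31, short of 0.32. The gene rpl1502 read 13.27, 13.13, 12.95 and 13.13 and rpl15, which bears the same protein number, read 13.89, 13.88, 13.73 and 13.93. Their genotype differences were -0.31 and -0.16 at 1.5 h, and 0.0025 and 0.053 at 3 h.

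The same held for rpl1002 and rpl2401. The L10 gene rpl1002 read 13.37, 13.24, 13.11 and 13.23, with genotype differences of -0.25 and -0.014. The gene rpl2401, for L24 at a bridge between the subunits, read 13.44, 13.34, 13.20 and 13.34, with differences of -0.24 and -0.0040, and its paralogue rpl2402 had 0.072 and 0.070. In rpl502, rpl1502, rpl1002 and rpl2401 the deletion at 1.5 h was the lowest array and wild type at 1.5 h the highest, and the difference of differences was 0.33, 0.31, 0.24 and 0.24. The gene rpl2101 read 13.39, 13.22, 13.08 and 13.12 and stayed lower in the deletion at 3 h, with differences of -0.32 and -0.10.

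In the small subunit, rps1202 was lower in the deletion at both times. It encodes S12 and read 13.85, 13.70, 13.62 and 13.52, with genotype differences of -0.23 and -0.19 and time differences of -0.15 in wild type and -0.11 in the deletion. Both deletion arrays were below both wild-type arrays, and limma's adjusted p for genotype was 0.102. Its paralogue rps1201 read 14.01, 14.001, 13.99 and 14.03. The triple of S4 genes had genotype differences at 1.5 h of -0.21 for rps401, 0.072 for rps402 and -0.13 for rps403. At 3 h these were -0.089, 0.021 and -0.054.

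The other triple encodes L8, a protein near the peptidyl transferase centre, in rpl801, rpl802 and rpl803. Its genotype differences at 3 h were -0.053, 0.19 and -0.016, so rpl802 (13.05, 12.96, 13.11 and 13.15) stood apart from the other two. The gene rpl8, which encodes a different protein, read higher in the deletion by 0.054 and 0.031.

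The remaining genes at the ends of a comparison differed by little. At 1.5 h rps2401 was higher in the deletion by 0.12, and its paralogue rps2402 by 0.0046. At 3 h rps2802 was higher by 0.16 and rpl3802 differed by -0.11. Over time in wild type rps1801 differed by -0.16, rps2502 by 0.085 and rps1901 by 0.069. Over time in the deletion rpl15 differed by 0.20, rpl35a by 0.20, rps2202 by 0.19 and rpl3802 by -0.084.

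The genotype differences at 1.5 h and at 3 h come from separate arrays, so they can be set against each other. Of the 111 genes, 25 were higher in the deletion at both times, 44 lower at both and 42 opposite. Across genes, which are not independent replicates and share their arrays and range of brightness, Pearson's r was 0.023 and Spearman's rho 0.49. The gene rps1401 sets the former, since r was 0.65 and rho 0.53 over the 110 others. For the time differences in wild type and in the deletion, r was 0.26 and rho 0.16 over the same 110 genes, and -0.27 and 0.13 with rps1401.

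The gene rpl1603 was below the floor on every array, at 9.44, 8.98, 9.01 and 9.10, and entered no comparison. Its genotype differences were -0.43 and 0.12 and its time differences -0.47 and 0.083, and its span in RefSeq overlaps that of apl1. For 2 genes there were 2 probe sets, and the brighter was taken. The sets of rpl3702 gave genotype differences at 1.5 h of -0.15 and -0.25, and those of rps3002 gave 0.060 and 0.078. At 3 h the 2 sets of each gene differed in sign, with -0.019 and 0.051 for rpl3702 and -0.0125 and 0.017 for rps3002. A further 7 probe sets carry the symbols of several ribosomal protein genes and belong to no single gene. Their genotype differences ran from -0.13 to 0.028 at 1.5 h and from -0.046 to 0.049 at 3 h, within the range of the single-gene sets.

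Other parts of the translation machinery were set beside the ribosomal protein genes. The acidic stalk proteins, with symbols rpp followed by digits, recruit the translation GTPases to the large subunit. All 7 measured stalk genes read lower in the deletion at 1.5 h, where 56% of all genes did, with a median of -0.10 and a range from -0.25 to -0.063. At 3 h 5 of 7 read lower, where 52.4% of all genes did, with a median of -0.016. Over time in the deletion 0 of the 7 were lower, where 49.9% of all genes were, and their median was 0.11. In wild type 3 were higher and 4 lower. The stalk gene rpp203 read 12.56, 12.18, 12.31 and 12.42, with a difference of differences of 0.48. Limma called 0 of the 7 for genotype or time, where 2.12% and 0% of all genes were called.

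The 17 translation factor genes had median genotype differences of -0.0082 at 1.5 h and 0.050 at 3 h. Limma called 0 of them for genotype or time, where 2.12% and 0% of all genes were called. Among 9 regulators of growth and of ribosomal protein gene transcription, 7 lay above the floor. Limma called 0 of these 7 for genotype or time, against the same 2.12% and 0% of all genes. The median genotype differences of the 7 were -0.0056 at 1.5 h and -0.093 at 3 h. At 1.5 h 1 of the 7 was higher and 1 lower by at least 0.32, where 10.9% and 13.8% of all genes were. Those of the 7 with the largest genotype differences follow. The S6 kinase gene psk1 read 12.26, 12.79, 12.78 and 13.11, higher in the deletion by 0.52 and 0.32, with limma's adjusted p = 0.0895. The forkhead gene fhl1, whose Saccharomyces cerevisiae namesake binds ribosomal protein promoters, differed by -0.33 and -0.27, with limma's adjusted p = 0.135. The gene of the TORC1 kinase, tor2, differed by -0.27 and -0.17.

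The mitochondrial ribosomal protein genes, which encode the ribosome of the organelle mostly read lower in the deletion at 1.5 h. Of 43 above the floor, 32 read lower at 1.5 h, where 56% of all genes did, with a median of -0.15, and 9 were lower by at least 0.32, where 13.8% of all genes were. At 3 h the median over 44 genes was -0.044, and 7 were lower by at least 0.32, where 10.5% of all genes were. Limma called 0 of 43 for genotype or time, where 2.12% and 0% of all genes were called. The difference between the mitochondrial and the cytosolic set was not tested.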

How the data were processed

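The deposited table holds log2 values, 1 per probe set and array, made by the authors with RMA per the submitters' processing notes. The RMA version, and which arrays it normalized as a set, is not given in the sources used here. RMA removes background, normalizes the arrays to each other and combines the probes of a set. Of 4999 probe sets, 2917 had 1 gene symbol, 20 had several and 2062 were unnamed here. Names were checked against the RefSeq table, where 2914 matched.

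For a gene with several sets, the set with the highest mean over the 4 arrays was taken. The members and lists were chosen with earlier results of these data known. Genes named are rps1401 and its paralogue, the 5 members at either end of each genotype and time comparison, the 3 highest and 3 lowest of the difference of differences, and the 6 paralogue groups with the widest range at each time. Neighbours, probe sets that disagree, rpl1001 and genes of the other lists were named beyond this rule, after their values were seen. The list of chaperones of single ribosomal proteins had 0 measured genes under the symbols used.

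The spread of a difference was taken as the median absolute deviation of the difference of differences, scaled to a standard deviation and divided by the square root of 2. The additive fit used limma 3.58.1 (R 4.3.3) on genes that passed the floor on 2 or more arrays and a threshold of 0.05. Scripts were tested on simulated data. Alternatives covered scaling, brightness trend, floor, probe set and variance model. Sequences were not used here. Tables were handled in Python 3.11.15 with pandas 2.3.3 and numpy 2.4.6, lowess came from statsmodels 0.14.6, and figures from matplotlib 3.10.9.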

Additional observations from a re-analysis of the deposited data

Results flagged for a closer look

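The genotype difference of rps1401 was 0.51 at 1.5 h and -0.99 at 3 h, so the deletion was the higher of the genotypes at the earlier time and the lower at the later one. The difference between these values, -1.50, stands out because the 2 times go opposite ways. With 1 array in each group this difference was not tested. Across the alternatives of scaling and brightness trend it stayed between -1.52 and -1.50. Those of floor and probe set left it unchanged, since rps1401 has 1 probe set and passed each floor.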

How the results depend on the processing

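The 5 medians over the ribosomal protein genes turned in 3 of 35 values from alternatives, all of them medians close to 0, and did not turn in 32. Among the 32, the wild-type time median after quantile normalization was 0.0000 and so had no direction. The genotype median at 3 h became -0.0032 after quantile normalization, and the wild-type time median became 0.0086 under lowess and 0.030 under median centring. Of 42 counts of genes past a threshold, 38 stayed within 1.5 times the reported count. After quantile normalization limma called 1 ribosomal protein gene for genotype, rpl3002, among 165 called of all 2314 genes. The difference of differences had 1 gene past 0.32 under lowess and 1 after quantile normalization, since rpl502 dropped out, and wild type over time had 2 with no floor, rpl1603 being added. The gap between the subunit medians kept its sign in 35 of 35 values and the single genes in 70 of 70. Median centring shifts both subunits alike and cannot move the gap, and the floor at the array median left it unchanged. Over time in wild type the gap was -0.0029, close to 0. The count of 35 is therefore no test of a difference between the subunits. The single genes were named for their large differences, and each has 1 probe set. Alternatives of floor and probe set therefore left their values unchanged, and only those of scaling and brightness trend could move them. With a threshold of 0.3 in place of the spread, the S14 pair no longer counted as opposite, and 0 groups did in any comparison. The causes were not tested beyond the construction of each alternative. No paired analysis was possible because each group has 1 array and the labels give no replicate numbers, and for the same reason leaving out an array was not run. Many ribosomal protein genes had signal close to the top of the range, and whether this made their differences smaller was not tested. The lack of replicates limits what small differences can show.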
